A study of Oryza sativa with 4 samples.

Results

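Nitrate is reduced to nitrite in the cytosol, and the next step, nitrite reduction in plastids, draws its electrons from ferredoxin, a small iron-sulphur protein that serves nitrite reductase, glutamate synthase and other enzymes. In green leaves ferredoxin is reduced by photosystem I, and leaf-type ferredoxin-NADP reductase (FNR) passes the electrons on to NADP. In roots and other tissues without photosynthesis the flow is turned around: glucose-6-phosphate dehydrogenase (G6PDH) and 6-phosphogluconate dehydrogenase (6PGDH), the oxidative enzymes of the pentose phosphate pathway, make NADPH, and a non-photosynthetic FNR uses it to reduce ferredoxin. The 5 probes described here stand for this chain of reductant supply: 2 ferredoxins (Fd), 1 FNR, 1 G6PDH and 1 6PGDH, out of 21495 probes on the array.

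The leaves came from rice, Oryza sativa indica var. Panvel, grown without nutrients on distilled water for 8 to 10 days at 25 °C, and were treated with 120 mM nitrate for 2 h. The light group was grown in a 12 h photoperiod, and the dark group was grown without light and was etiolated. Controls of both groups received water. The study's methods state that excised leaves were floated on the solutions, so that no result concerns roots or whole plants. They name the salt as potassium nitrate, and the control was water alone, so nitrate, potassium and osmotic load cannot be told apart. A response to nitrate is below a response to this salt. The methods give a shorter treatment and a warmer growth chamber than the labels. Each of 4 Agilent arrays (2 in light, 2 in dark, biological replicates with the dyes flipped) was hybridised with nitrate-treated and water-treated RNA together. Which channel holds the nitrate-treated RNA was settled from the signs of the study's own fold changes, so the directions below are not independent of the study.

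The members were chosen as the ferredoxin, FNR, G6PDH and 6PGDH loci of reductant supply and each was linked to the probe whose mean ratio equalled the value listed for the locus, which was found for all 5. Fd (Os01g64120), on chromosome 1 by its locus identifier, is probe A_71_P103413, described on the array as similar to maize ferredoxin VI. Fd (Os05g37140), on chromosome 5, is probe A_71_P115345, described as a rice root ferredoxin. Since the study's annotation likens Os05g37140 to the maize protein, which of these probes belongs to which ferredoxin locus rests on the match of values alone. FNR (Os03g57120), on chromosome 3, is probe A_71_P107781. G6PDH (Os07g22350), on chromosome 7, is probe A_71_P119392, likened by the array to a chloroplast enzyme of tobacco. 6PGDH (Os11g29400), on chromosome 11, is probe A_71_P124841, likened to an Arabidopsis gene. Positions within the chromosomes and probe sequences were not used here, and hybridisation to other genes of the same families was not tested.

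Each array carried 42990 spots, 2 for each probe. In the nitrate channel, spots well above background made up 75.5% to 79.0%, and in the water channel 75.7% to 77.8%. All 4 arrays lay on 1 slide with 1 scan time, so no batch of slides could be compared. The tissue labels were checked against marker genes: 13 of 16 chlorophyll a/b-binding probes and 10 of 16 photosystem probes were lower in the normalized water level of dark than of light leaves, and 1 probe of each set was higher. Neither of 2 probes found by the words for RbcS, the small subunit of Rubisco, passed the threshold, and 1 of them is described as a methyltransferase of that subunit. Of 2 probes for NADPH-protochlorophyllide oxidoreductase, an enzyme abundant in etiolated leaves, 1 was lower in dark and none higher, so this marker did not separate the groups in the direction of the label. No phytochrome A probe, the other etiolated marker searched for, was found. The photosystem probe higher in dark, A_71_P107955, differed by 3.03. The chlorophyll a/b-binding probe higher in dark, A_71_P111568, differed by 1.07. With water it was well above background on no light array and on only 1 dark array. Among all probes 14.4% were lower and 14.6% higher in dark by the same threshold. The summed signal of the chlorophyll a/b-binding probes was 900164 and 325757 in the water channel of light replicates 1 and 2. In dark it was 55866 and 40686, and these sums were not normalized between arrays. Light replicates 1 and 2 had 224 and 885 saturated spots over all probes, and saturation of the marker spots was not examined. Of 4 probes described as the root-specific gene RCc3, 3 exceeded background clearly in some channel in each condition. The fourth, A_71_P109403, was well above background in no channel.

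Every member was well above background in both channels, on both spots of all 4 arrays, and none was left out by a filter. Signals are the background-subtracted, dye-balanced intensities of each channel, averaged over the 2 spots, and they are compared only within an array. Ratios are log2(nitrate/water) after loess normalization within the array, and a DEG (differentially expressed gene) was a probe 1 or more log2 units from 0 with an unadjusted, two-sided p of at most 0.05 by limma. Each ± is limma's moderated standard error (SE) with n = 2 arrays per condition. Adjusted p-values are by Benjamini-Hochberg over all probes. On each array the members' spots differed by at most 0.15 in log2 ratio.

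All 5 members rose with nitrate in light and all 5 rose in dark. Among all probes 2.28% were upregulated DEGs in light, 1.81% in dark and 0.475% in both. The list was drawn up with its response known, so these counts are a description of the members and not independent evidence of their direction. The members' median log2 ratio was 3.48 in light and 2.35 in dark. The median over all probes was -0.01 in each condition. After adjustment, 4 of 5 members passed in light, where 0.209% of all probes were upregulated at this level, and 3 of 5 passed in dark, where 0.135% were.

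**Figure D1:**
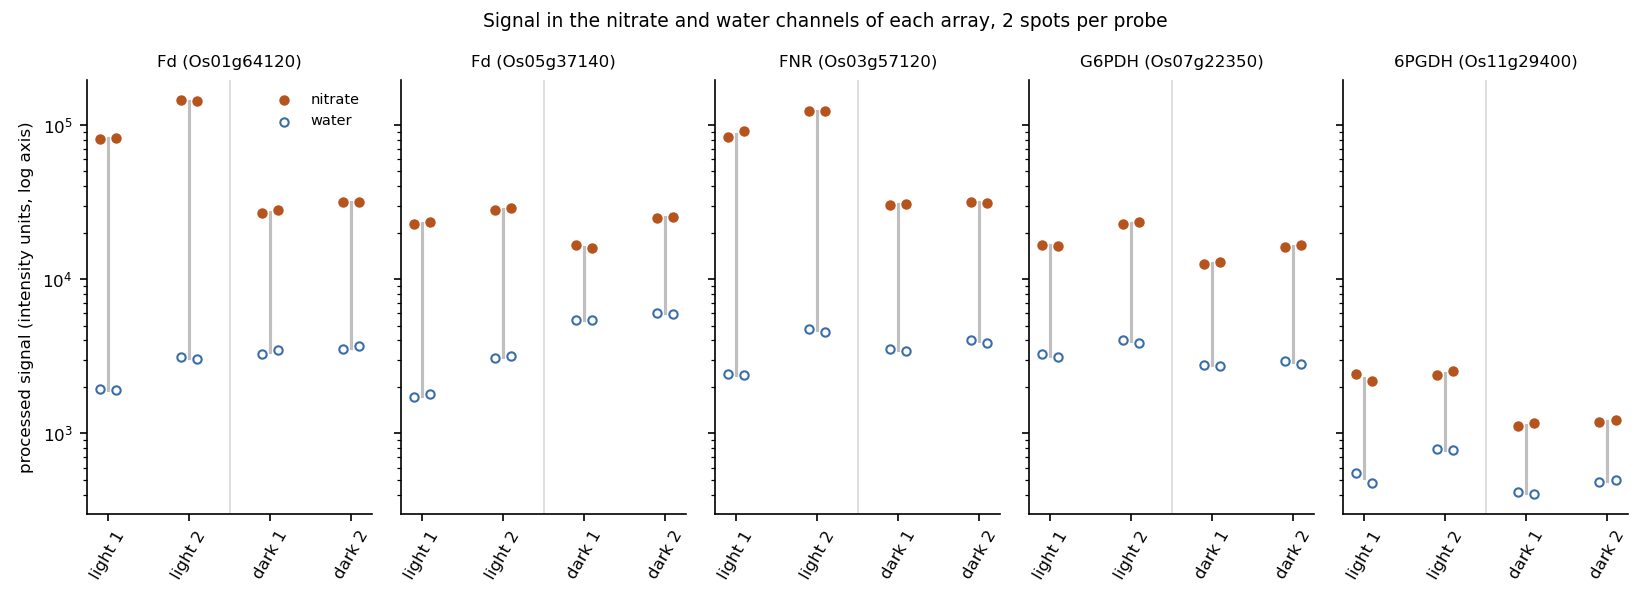
Processed signal (intensity units, log axis) of the nitrate channel (filled) and the water channel (open) for each member on each array, with both spots of the probe drawn. The nitrate signal lay above the water signal on all 4 arrays for all 5 members, and for Fd (Os01g64120) it reached 143907 on light replicate 2, where the water signal was 3069.

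Ferredoxin is the electron carrier that nitrite reductase uses directly. For Fd (Os01g64120), probe A_71_P103413, the nitrate signal was 81804 and 143907 in light replicates 1 and 2, and the water signal was 1916 and 3069. In dark replicates 1 and 2 the nitrate signal was 27431 and 31516, and the water signal was 3348 and 3595. The nitrate channel thus stood far above the water channel on every array, and further in light than in dark. The log2 ratios were 5.43 and 5.51 in light and 3.05 and 3.13 in dark, with no overlap between the conditions. The fitted rise was 5.47 ± 0.13 in light, or 44.3-fold (95% interval 34.8 to 56.4, adjusted p = 0.0146). In dark it was 3.09 ± 0.13, or 8.53-fold (6.70 to 10.9, adjusted p = 0.0476). This probe ranked 2 among all probes by fitted log2 ratio in light and 8 in dark. On light replicate 1, 1 of its 2 nitrate spots was saturated, and without saturated spots the light value was 5.46.

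For Fd (Os05g37140), probe A_71_P115345, the nitrate signal was 23173 and 28591 in light and 16215 and 25102 in dark. The water signal was 1756 and 3133 in light and 5433 and 5989 in dark. The nitrate channel was the higher one on every array. The log2 ratios were 3.74 and 3.21 in light and 1.59 and 2.07 in dark, again without overlap. The fitted rise was 3.48 ± 0.21 in light, or 11.1-fold (7.46 to 16.6, adjusted p = 0.0395). In dark it was 1.83 ± 0.21, or 3.56-fold (2.39 to 5.31, adjusted p = 0.0842), a DEG that did not pass adjustment. With the dark arrays fitted alone by limma and without moderation of the variance, it missed the p threshold and was no DEG. It ranked 12 in light and 90 in dark.

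FNR catalyses electron transfer between NADPH and ferredoxin. For FNR (Os03g57120), probe A_71_P107781, the nitrate signal was 87238 and 123810 in light and 30628 and 31459 in dark. The water signal was 2404 and 4641 in light and 3479 and 3950 in dark. On every array the nitrate channel was far above the water channel. The log2 ratios were 5.19 and 4.69 in light and 3.16 and 2.995 in dark. FNR rose by 4.94 ± 0.18 in light, or 30.6-fold (21.9 to 42.8, adjusted p = 0.0186), and by 3.08 ± 0.18 in dark, or 8.43-fold (6.03 to 11.8, adjusted p = 0.0476). It ranked 4 in light and 9 in dark. Both of its nitrate spots were saturated on light replicate 1. With saturated spots left out the light value rested on replicate 2 and was 4.69.

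G6PDH commits glucose-6-phosphate to the oxidative pentose phosphate pathway and makes its first NADPH. For G6PDH (Os07g22350), probe A_71_P119392, the nitrate signal was 16602 and 23116 in light and 12653 and 16399 in dark. The water signal was 3193 and 3939 in light and 2754 and 2879 in dark. The nitrate signal was the higher one on every array. The log2 ratios were 2.39 and 2.58 in light and 2.20 and 2.50 in dark, so that light and dark overlapped. The fitted rise was 2.49 ± 0.15 in light, or 5.60-fold (4.22 to 7.44, adjusted p = 0.0395). In dark it was 2.35 ± 0.15, or 5.11-fold (3.85 to 6.79, adjusted p = 0.0476). It ranked 33 in light and 32 in dark.

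6PGDH is the next NADPH-producing enzyme of the pathway. For 6PGDH (Os11g29400), probe A_71_P124841, the nitrate signal was 2296 and 2468 in light and 1140 and 1205 in dark. The water signal was 516 and 784 in light and 411 and 492 in dark. On every array the nitrate channel was the higher one. The log2 ratios were 2.17 and 1.67 in light and 1.47 and 1.28 in dark, without overlap. The fitted rise was 1.92 ± 0.18 in light, or 3.78-fold (2.70 to 5.31, adjusted p = 0.0626), and 1.38 ± 0.18 in dark, or 2.60-fold (1.85 to 3.65, adjusted p = 0.0962). Both were DEGs, and neither passed adjustment. With the light arrays fitted alone by limma and without moderation, the light value missed the p threshold and was no DEG. It ranked 66 in light and 208 in dark.

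In light, the order of the log2 ratios was Fd (Os01g64120), FNR, Fd (Os05g37140), G6PDH and 6PGDH. In dark, G6PDH stood above Fd (Os05g37140), and the 2 leading members, at 3.09 and 3.08, differed by less than their SE. The 95% intervals of neighbours overlapped in light for Fd (Os01g64120) and FNR and for G6PDH and 6PGDH, and in dark for every pair of neighbours. The gap between replicates ran from 0.08 to 0.53 in log2 ratio over the members, against a median of 0.294 in light and 0.298 in dark over all probes.

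**Figure D2:**
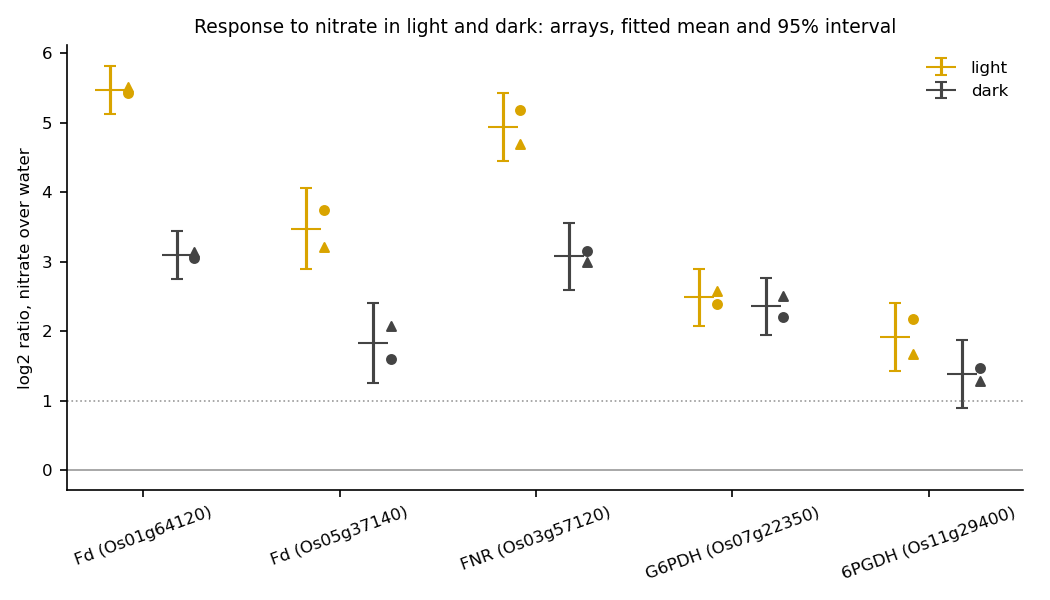
Log2 ratio of nitrate over water for each member in light and dark: circles are replicate 1, triangles replicate 2, horizontal marks the fitted mean and bars its 95% interval, with the DEG threshold of 1 dotted. Light and dark values are apart for both ferredoxins, FNR and 6PGDH and overlap for G6PDH (2.39 and 2.58 in light, 2.20 and 2.50 in dark).

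Whether the response differed between etiolated and light-grown leaves was tested as the contrast of the fitted values. The response was smaller in dark for 3 of 5 members, both ferredoxins and FNR, where 3.54% of all probes passed the same threshold in that direction. For Fd (Os01g64120) the difference, dark minus light, was -2.38 (SE 0.18, 95% interval -2.87 to -1.89, adjusted p = 0.0993), a response 5.20-fold smaller in dark. For FNR the difference was -1.86 (SE 0.25, -2.54 to -1.18, adjusted p = 0.162), or 3.63-fold, and without saturated spots it was -1.61. For Fd (Os05g37140) the difference was -1.64 (SE 0.30, -2.46 to -0.83, adjusted p = 0.200), or 3.12-fold. After adjustment by limma 0 of the 5 members and 0 of all probes passed in this contrast. At the unadjusted threshold 1400 probes, 6.51%, passed in either direction.

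For both enzymes of the pentose phosphate pathway a difference was not detected. The difference for G6PDH was -0.13 (SE 0.21, 95% interval -0.71 to 0.45, adjusted p = 0.820), so a response up to 0.71 lower or 0.45 higher in dark on the log2 scale lies within the interval. For 6PGDH it was -0.54 (SE 0.25, -1.23 to 0.15, adjusted p = 0.406). Both light ratios lay above both dark ratios in 4 of 5 members, as they did in 24% of all probes. Whether the ferredoxins and FNR differed from G6PDH and 6PGDH in this respect was not tested.

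**Figure D3:**
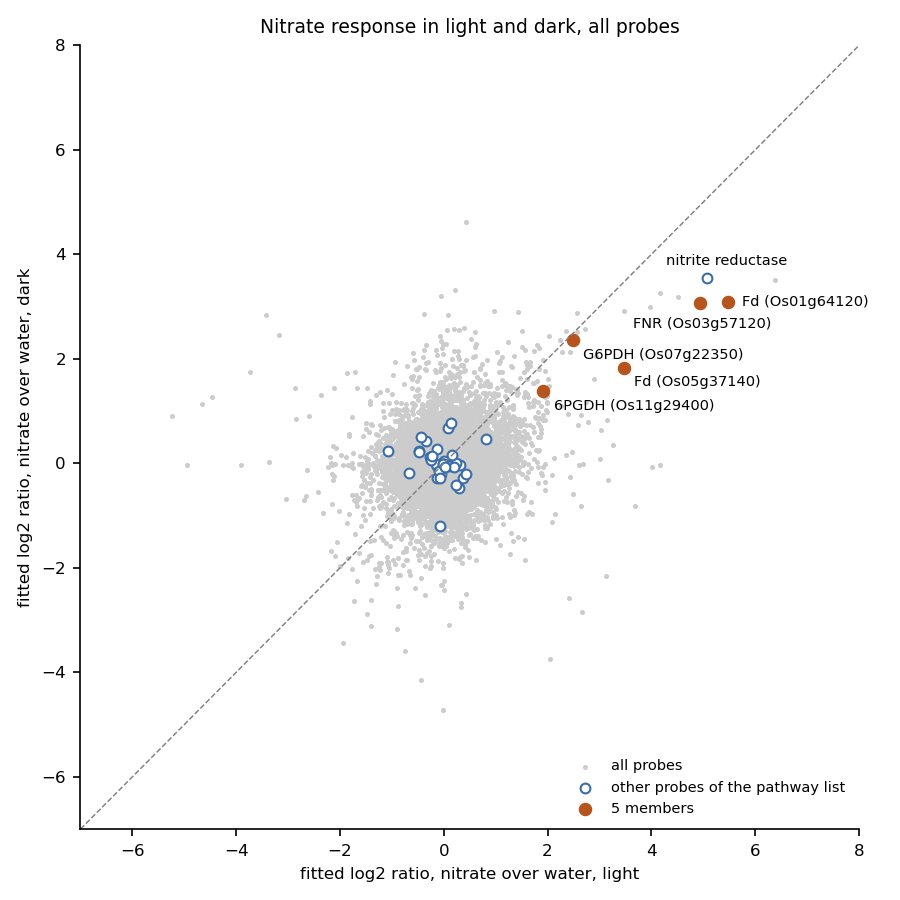
Fitted log2 ratio of nitrate over water in light (x axis) and dark (y axis) for all probes (grey), the 36 other probes of the pathway list (open) and the 5 members (filled), with equal response dashed. The nitrite reductase probe is drawn at its measured ratios, with a water channel not well above background. G6PDH, at 2.49 and 2.35, lies near the dashed line, whereas Fd (Os01g64120), at 5.47 and 3.09, and FNR, at 4.94 and 3.08, lie below it.

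A smaller ratio can come with a higher water level, a lower nitrate level or both, so the channels were compared separately. Levels are log2 values normalized between arrays, dark minus light. Each condition has its own arrays, so array and condition cannot be told apart in these values. In bulk leaf RNA, fewer cells of a type and less RNA per cell cannot be told apart either.

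In water-treated leaves both ferredoxins were higher in dark, where 14.6% of all probes were higher by the same threshold. The water level of Fd (Os05g37140) was 10.55 and 11.13 in light and 12.77 and 12.78 in dark, a difference of 1.94 (SE 0.24, adjusted p = 0.00125), or 3.83-fold. That of Fd (Os01g64120) was 10.70 and 11.24 in light and 12.06 and 12.07 in dark, a difference of 1.10 (SE 0.27, adjusted p = 0.0178), or 2.14-fold. Neither ferredoxin overlapped between light and dark in this channel. The share of all probes without overlap was not computed for levels, so nothing is read from this. Without light replicate 1 the difference of Fd (Os01g64120) was 0.82 and under the fold threshold. For FNR the difference was 0.70 (SE 0.29, adjusted p = 0.106). Without light replicate 2 it was 1.13 and past the threshold, and without light replicate 1 it was 0.26. For G6PDH it was 0.35 (SE 0.13, adjusted p = 0.0811) and for 6PGDH 0.23 (SE 0.15, adjusted p = 0.266).

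In nitrate-treated leaves the order was another one. Fd (Os01g64120) was lower in dark, with a difference of -1.28 (SE 0.27, adjusted p = 0.00911) and levels of 16.13 and 16.76 in light and 15.12 and 15.20 in dark. FNR was lower in dark, with a difference of -1.16 (SE 0.29, adjusted p = 0.0192) and levels of 16.21 and 16.57 in light and 15.26 and 15.20 in dark. These were 2 of 5 members, where 15.9% of all probes were lower in dark. Both calls depended on single arrays. Without light replicate 2 the differences were -0.97 for Fd (Os01g64120) and -0.98 for FNR, under the fold threshold. The light level then rests on light replicate 1, where both FNR nitrate spots and 1 of 2 ferredoxin nitrate spots were saturated. For FNR p was 0.0502 by limma without dark replicate 1 and 0.0576 without dark replicate 2. Fd (Os05g37140) had nitrate levels of 14.29 and 14.34 in light and 14.36 and 14.85 in dark, a difference of 0.29 (95% interval -0.30 to 0.88). G6PDH differed by 0.22 (-0.11 to 0.55) and 6PGDH by -0.31 (-0.67 to 0.04).

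Thus the smaller ratio of Fd (Os05g37140) in dark went with a higher water level, with a nitrate level whose interval includes 0. That of Fd (Os01g64120) went with a higher water level and a lower nitrate level. That of FNR went with a lower nitrate level (-1.16) and a water level difference of 0.70 that did not pass the threshold. The level calls of FNR and Fd (Os01g64120) depended on single arrays, and array and condition cannot be told apart in them.

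**Figure D4:**
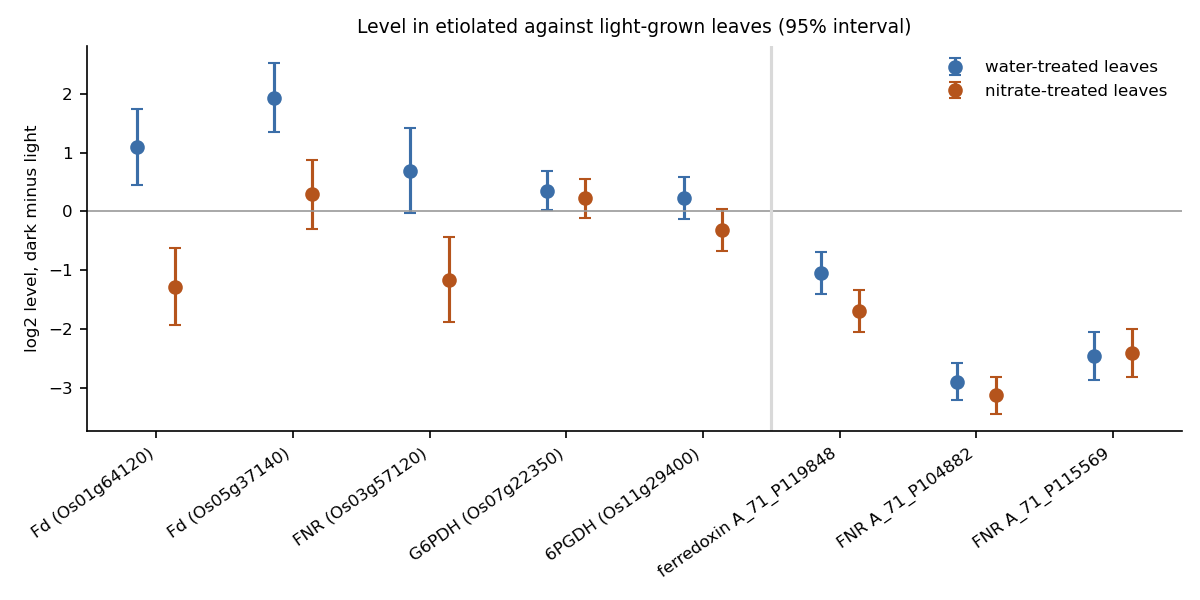
Log2 level in dark minus light for water-treated and nitrate-treated leaves, fitted value and 95% interval, for the 5 members and, right of the grey line, for 1 other ferredoxin and 2 other FNR probes. Both ferredoxin members lie above 0 in water-treated leaves (1.10 and 1.94), whereas the other ferredoxin and FNR probes lie below 0 in both treatments (-1.05 to -3.13).

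The other probes of the same enzyme families and of the rest of the pathway were found by words in the array's descriptions. Of these 36 probes, 32 were well above background in some channel. In light 1 was an upregulated and 1 a downregulated DEG, in dark 1 was up and 1 down, and 3 differed between the conditions, 2 of which (A_71_P102212 and A_71_P119954) had a channel that was not well above background on any array. Over all probes 3.74% were DEGs in either direction in light and 3.53% in dark. Their median log2 ratio was -0.01 in light and -0.01 in dark.

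None of the 4 other ferredoxin probes was a DEG, with log2 ratios from -0.13 to 0.36 in light and -0.29 to -0.02 in dark. A_71_P119848, described as a rice ferredoxin, gave 0.36 (95% interval -0.11 to 0.83) in light and -0.29 (-0.76 to 0.18) in dark. Its water signal was 65734 and 38583 in light and 22159 and 21388 in dark. The level in water-treated leaves was lower in dark, with a difference of -1.05 (SE 0.15), where 14.4% of all probes passed the threshold in that direction. This was the opposite direction to that of the ferredoxin members. A_71_P112390, likened to a non-photosynthetic ferredoxin of citrus, gave 0.31 (-0.11 to 0.73) in light and -0.03 (-0.45 to 0.39) in dark. Differences between probes of a family were not tested, and by probe, spot saturation is given for the members only.

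None of the 4 other FNR-type probes was a DEG either, with log2 ratios from -0.26 to 0.23 in light and -0.02 to 0.13 in dark. Of these, A_71_P118256 was well above background in no channel, so its ratio says nothing of a response. A_71_P104882, likened to maize L-FNRII, a leaf-type FNR, gave 0.23 (-0.12 to 0.59) in light and 0.01 (-0.35 to 0.36) in dark. A_71_P115569, described as a rice FNR like the member is, gave 0.00 (-0.52 to 0.52) and 0.05 (-0.47 to 0.57). The intervals of both ended far below those of the FNR member. In water-treated leaves these probes were lower in dark, with differences of -2.90 (SE 0.13) and -2.46 (SE 0.17), whereas the member's difference was 0.70 in the other direction.

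Of 6 other G6PDH probes, 1 was a DEG. A_71_P106466 had log2 ratios of -0.41 and 0.27 in light and -1.18 and -1.21 in dark, with signals between 127 and 590. It fell in dark by 1.19 (SE 0.21, adjusted p = 0.135), or 2.28-fold, and the difference from light was -1.12 (SE 0.29, adjusted p = 0.243). The G6PDH member rose on the same arrays. The other 5 lay between -0.47 and -0.01 in light and between -0.27 and 0.24 in dark. Of these, A_71_P122879 was well above background in no channel, and A_71_P112174 in none in dark. The other 6PGDH probe, A_71_P115604, described as the cytosolic enzyme, gave 0.30 (-0.08 to 0.68) in light and -0.46 (-0.84 to -0.08) in dark and was no DEG.

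**Figure D5:**
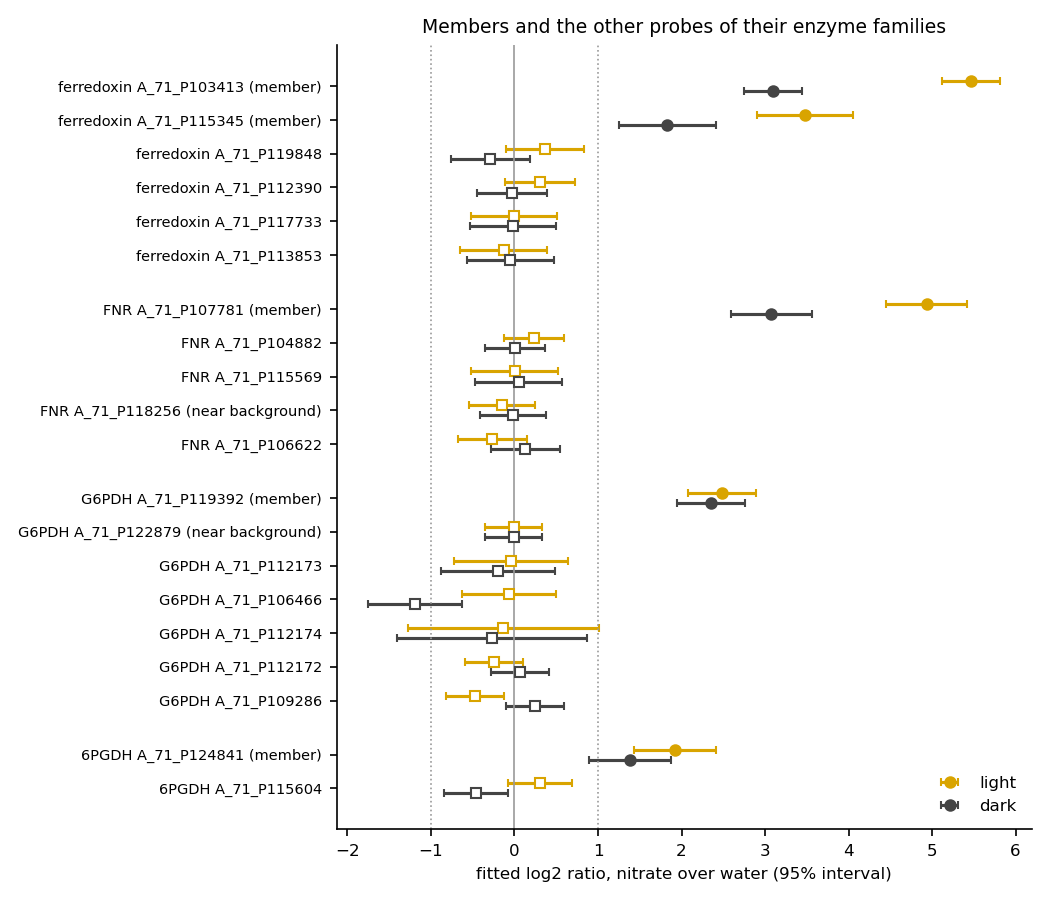
Fitted log2 ratio of nitrate over water with its 95% interval in light and dark for the members (filled) and the other probes of their enzyme families (open), with thresholds of -1 and 1 dotted. The other ferredoxin, FNR and 6PGDH probes all lie between -1 and 1, and 1 G6PDH probe, A_71_P106466, lies at -1.19 in dark.

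Further along the pathway, none of 5 probes for 6-phosphogluconolactonase, which opens the lactone that G6PDH makes, was a DEG. The same held for 5 probes described with the word transketolase, of which 2 are CLA1, an enzyme of isoprenoid synthesis, for 1 ribose-5-phosphate isomerase and for 3 ribulose-5-phosphate epimerases. Transketolase, the isomerase and the epimerase, but not CLA1, belong to the non-oxidative branch, which interconverts sugar phosphates. The transketolase probe A_71_P128080 was well above background in no channel. Lactonase probes A_71_P109298 and A_71_P120664 were so only on some arrays. Of 2 transaldolase probes, A_71_P103727 gave 0.81 (0.44 to 1.18) in light and 0.48 (0.11 to 0.85) in dark, below the fold threshold. A_71_P119954 fell by 1.08 (SE 0.19, adjusted p = 0.117) in light and passed the threshold of the contrast. Its light signals, 18.7 and 22.8 with nitrate and 40.2 and 46.6 with water, were close to background. Its nitrate channel was not well above background on any array, which allows only at least 1.07-fold lower in light. That bound is itself uncertain, since in light the water channel was well above background on only 1 of 2 arrays. In dark its water channel was well above background on no array, so no size is given for the difference.

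Among enzymes that take electrons from ferredoxin, the sulfite reductase and ferredoxin-thioredoxin reductase probes were no DEGs. The sulfite reductase probe A_71_P128086 was well above background in no channel. No ferredoxin-dependent glutamate synthase probe was found by the words searched. Of 2 nitrite reductase probes, A_71_P102212 rose in both conditions, with log2 ratios of 5.07 and 5.08 in light and 4.05 and 3.05 in dark. Its water signal was not well above background on any array, so only a lower bound can be given, at least 15.1-fold higher for light and at least 5.75-fold higher for dark. This bound sets the nitrate level against the dimmest probes well above background. The other, A_71_P122972, gave -0.22 in light and 0.13 in dark.

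The probes whose 4 log2 ratios came nearest to each member's were ranked by Euclidean distance among 16005 other probes that were clearly above background in some channel of each array. The members nearest to each other were Fd (Os01g64120) and FNR, at 0.88, while G6PDH and 6PGDH lay 1.70 apart. For FNR the nearest was A_71_P103189, likened to maize uroporphyrinogen III methyltransferase, which acts in siroheme synthesis, at 0.63 with log2 ratios of 4.77, 4.28, 3.40 and 2.96 on light replicates 1 and 2 and dark replicates 1 and 2. Next came the nitrite reductase probe A_71_P102212 at 0.99 and A_71_P126125, likened to the tobacco chloride channel CLC-Nt2, at 1.30. For Fd (Os01g64120) the nearest were A_71_P102212 at 1.15, A_71_P104314, likened to barley nitrate reductase, at 1.44, and A_71_P103189 at 1.45. The distances of A_71_P102212 rest on water signals not well above background, so that its measured ratios and its rank are uncertain. Siroheme is the prosthetic group of nitrite reductase.

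For Fd (Os05g37140) the nearest probes were A_71_P112201, of no named function, at 0.97, A_71_P110515, rice hemoglobin 1, at 1.45, and A_71_P120152, a rice alpha-amylase, at 1.50. For G6PDH they were A_71_P117019, of no named function, at 0.45, A_71_P106604, likened to the Arabidopsis glutamate receptor GLR2.2, at 0.64, and A_71_P126531, an unknown protein, at 0.71. For 6PGDH they were A_71_P105637 at 0.30 and A_71_P116582 at 0.44, both of no named function, and A_71_P122738, likened to an Arabidopsis bHLH transcription factor, at 0.34. In A_71_P120152, A_71_P105637 and A_71_P116582 water signals were not well above background in light, nor were those of A_71_P126531 in dark, so their ranks are uncertain as well. With 4 arrays these distances are a description.

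The ferredoxin member of chromosome 5 is described as a root ferredoxin, so the root markers are given beside it. The summed signal of the 4 RCc3 probes was 36146 and 35261 in the water channel in light and 33912 and 35806 in dark. In the nitrate channel it was 52969 and 50186 in light and 22326 and 24792 in dark. Most of these sums came from A_71_P123226, which gave 34676 and 33828 with water and 52576 and 49579 with nitrate in light and was no DEG (0.53 in light, -0.56 in dark). By probe, 2 of 4 were DEGs in light, both downwards. A_71_P104181 was at least 7.49-fold lower, since with nitrate it was not well above background in light, and A_71_P123098 gave -1.28. In dark 1 was a DEG, A_71_P104181 at 1.13. The part of these signals in the members' results was not tested.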

How the data were processed

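Total RNA of nitrate- and water-treated rice leaves was measured on 4 two-colour Agilent arrays, 2 in light and 2 in dark. Per the file headers, the authors used Feature Extraction 9.5.3.1 (the methods name an earlier version), which had given intensity values per spot, background-subtracted and dye-balanced, and a log10 ratio; this scanner output was deposited. The authors also deposited normalized ratios made with GeneSpring, used as an alternative, whose log2 values correlated at 0.986 to 0.991 with those computed here. Between 144 and 3004 probes per array were missing there, and the medians of the deposited ratios were 0.989 to 1.01.

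The labels name dyes but not the channel that held nitrate. Channel 2 was read as nitrate, since the signs of 23 of 23 probes in light and 16 of 16 in dark then equalled those listed in the study's supplementary tables. Nitrate was in Cy5 in replicate 1 and in Cy3 in replicate 2. Replicate numbers are in accession order. Each member was linked to its locus where the mean ratio of its probe equalled the value listed for the locus.

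From the processed signals, log2 ratios were normalized by loess (span 0.3, 4 iterations), averaged over 2 spots and fitted with limma 3.58.1 in R 4.3.3 with 1 coefficient per condition over the 4 arrays. Control spots (1417 per array) and outlier spots (7 to 60) were dropped, but not saturated ones. DEGs lay 1 or more log2 units from 0 with p of at most 0.05, the thresholds of the methods, which name no test for the arrays. Levels came from a separate-channel fit (Aquantile between arrays, statmod 1.5.0, correlation within spots -0.0442). A probe not above background in 1 channel was given the bound "at least", from the means of normalized log2 levels over both dye orientations. The number of arrays limits the precision. In the main fit p-values rest on the spread between 2 replicates per condition, pooled over light and dark and moderated over all probes. The replicates are also the dye flips, so any dye bias is part of that spread.

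The members and lists were chosen with earlier results of these data known. The words searched for G6PDH and epimerase were fitted to the array's wording after it was seen. The genes named are the members, the pathway probes that were DEGs, the other probes of the members' families and the 3 nearest probes to each member. Promoters and proteins were not analysed here. The alternatives were normexp background correction (offset 50), median centring, no loess, the scanner software's own log ratio, the deposited ratios, a filter on dim probes, outlier spots kept, a replicate block, no moderation, each condition alone, quantile normalization between channels, adjusted p-values and the omission of each array. Leaving out saturated spots, and each condition alone without moderation, were added after seeing the data. On simulated data in which 200 of 21493 probes had a log2 change of 2, limma recovered 198 in light, 199 in dark and 189 in the contrast, with 104, 122 and 315 unchanged probes called. After adjustment 93, 73 and 56 were recovered. Those simulations used each probe's own spread. For the water level all 200 were recovered, but there every probe was given the same spread. Recovery for probes with a larger spread was thus not tested for levels. Figures were drawn with matplotlib 3.10.9.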

Additional observations from a re-analysis of the deposited data

Results flagged for a closer look

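The nitrate response differed between dark and light by the unadjusted test of the difference for 3 members. The log2 differences, dark minus light, were -2.38 for Fd (Os01g64120), -1.86 for FNR (Os03g57120) and -1.64 for Fd (Os05g37140). Each had 2 arrays per condition and both light ratios above both dark ratios. Among all probes 3.54% passed the same threshold in that direction, and 24% had both light ratios above both dark ratios. None of these 3 members passed adjustment over all probes by limma. With 2 arrays in each condition, no group was large enough for a test of single arrays that stand apart.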

How the results depend on the processing

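The members' calls for the nitrate response and for its difference between dark and light kept their side of the threshold under normexp background correction, median centring, no loess, the scanner software's own log ratio, the deposited ratios, the filter on dim probes, outlier spots kept, saturated spots left out, each condition alone with moderation, no moderation in the fit of all arrays and each array left out. The members had neither outlier spots nor dim channels. The dim filter and the kept outliers thus left their log2 ratios unchanged and could move only SE and p. For the members, no loess and the scanner software's own log ratio gave equal log2 ratios and differed only in SE and p. The members' level calls were kept under normexp and under quantile normalization between channels. No called value changed direction under any of these. Under the adjusted p, the calls of 6PGDH in light (1.92) and dark (1.38) and of Fd (Os05g37140) in dark (1.83) were lost, leaving 3 members up in dark, as were all 3 differences (-2.38, -1.86 and -1.64), leaving 0 members lower in dark. With each condition alone and without moderation, 6PGDH in light (1.92) and Fd (Os05g37140) in dark (1.83) were lost. Over the arrays left out, the members' counts stayed at 5 in light, 5 in dark and 3 for the difference. The water level difference ranged from 0.82 to 1.37 for Fd (Os01g64120) and from 0.26 to 1.13 for FNR, and the nitrate level difference from -1.60 to -0.97 and from -1.35 to -0.98. The remaining array of a condition is assumed to vary like the others, and the correlation within spots was kept from the fit of all arrays. Replicates share a number by accession and dye only, and their deviations correlated at 0.12 between light and dark. With a replicate block the counts of members were 5, 5 and 3 and those of all probes 806, 763 and 1451, so the block changed no call of a member.

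Counts of DEGs over all probes moved more than the members did. They were 803 in light, 759 in dark and 1400 for the difference, and 271, 222 and 500 under normexp, 67, 48 and 0 under the adjusted p, 494 in dark and 693 for the difference without moderation, 283 in light and 236 in dark with each condition alone and without moderation, and 1467 in dark and 2281 for the difference without dark replicate 2. Under normexp the counts of levels fell from 6239 to 3882 with water and from 6744 to 4312 with nitrate. The causes were not tested.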
